A study of Rattus norvegicus with 10 samples.

Results

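The enzymes of sphingolipid metabolism were followed in sorted rat β-cells after silencing of the transcriptional repressor Scrt1. The group consisted of 39 genes picked by symbol, out of 23918 genes with values, and they were placed in 5 branches by their known reactions. These were the synthesis of ceramide (13 genes), the synthesis of sphingomyelin and ceramide phosphate (3), the galactosylceramide branch (4), the glucosylceramide and ganglioside branch (7), and breakdown together with sphingosine phosphate (12). All 39 symbols were found, each as 1 gene, and 36 of them passed the filter on low values.

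Sphingolipids are membrane lipids built on a long-chain base. Serine palmitoyltransferase joins serine to a fatty acid, ceramide synthases attach an acyl chain, and the resulting ceramide is either turned into sphingomyelin, phosphorylated, or given a sugar. Ugt8 adds galactose and makes galactosylceramide, the precursor of sulfatide, a lipid known from myelin and also present in islets. Ugcg adds glucose and thereby opens the route to gangliosides. Ceramidases release sphingosine, sphingosine kinases phosphorylate it, and the lyase Sgpl1 splits sphingosine phosphate, which is the only exit from the pathway. Ceramide is known in β-cells as a lipid linked to impaired insulin gene expression and to cell death.

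Islet cells of adult Sprague-Dawley rats were sorted by β-cell autofluorescence and transfected with a single pool of 4 siRNAs against rat Scrt1 (siScrt1) or with a negative control siRNA (siCtrl), and RNA was taken after 48 h. Each group held 5 libraries, siCtrl replicates 1 to 5 and siScrt1 replicates A to E, with 11901342 to 17444034 reads assigned to transcripts. Only 1 pool was used, so an effect of lowered Scrt1 and another effect of these siRNAs cannot be told apart. Nothing in the labels says whether the libraries of a group came from separate animals, so p-values measure the spread between these libraries. Scrt1 itself was at 14.1 ± 2.61 CPM in the control libraries and at 3.58 ± 1.63 CPM after silencing (CPM, reads scaled to library depth; SD of 5 libraries per group; two-sided exact permutation p = 0.00794, which is the lowest value possible with 5 against 5 libraries). All 11 β-cell markers found passed the filter, with Ins1 at 48617 to 82005 CPM, while the summed CPM of α-cell markers lay at 733 to 1216 in siCtrl and at 686 to 1034 in siScrt1.

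The start regions of 3 genes are shown. Ugt8 and Sgpl1 were the members with the firmest falls described below. Galc, which degrades the product of Ugt8, was picked as an example that held the letters looked for. The 3 regions therefore do not compare genes with and without these letters. Each is the 250 bases before the RefSeq start of the gene on build GRCr8, minus strand, read 5′ to 3′. Capitals mark CAGGTG, the core of the E-box to which Snail and Scratch proteins are known to bind, searched on both strands. Ugt8 lies at chr2:217007168-217007417, Sgpl1 at chr20:29636879-29637128 and Galc at chr6:123245560-123245809.
Ugt8: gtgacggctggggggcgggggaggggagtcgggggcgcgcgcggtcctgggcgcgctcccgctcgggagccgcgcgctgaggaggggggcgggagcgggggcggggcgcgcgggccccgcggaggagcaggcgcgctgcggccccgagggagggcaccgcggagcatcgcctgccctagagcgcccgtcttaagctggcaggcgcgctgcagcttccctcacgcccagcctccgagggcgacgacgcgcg
Sgpl1: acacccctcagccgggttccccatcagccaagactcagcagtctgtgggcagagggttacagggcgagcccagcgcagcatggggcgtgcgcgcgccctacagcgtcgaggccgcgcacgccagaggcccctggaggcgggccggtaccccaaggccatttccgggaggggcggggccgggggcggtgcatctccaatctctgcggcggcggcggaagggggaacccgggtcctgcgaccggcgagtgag
Galc: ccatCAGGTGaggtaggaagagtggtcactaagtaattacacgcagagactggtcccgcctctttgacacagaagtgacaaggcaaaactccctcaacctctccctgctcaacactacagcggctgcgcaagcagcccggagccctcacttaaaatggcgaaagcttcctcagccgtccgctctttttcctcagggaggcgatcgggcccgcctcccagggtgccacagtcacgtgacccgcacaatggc
Neither the Ugt8 nor the Sgpl1 window held CAGGTG, nor any other E-box of the form CANNTG, which contains CAGGTG as a special case. RefSeq start regions were matched for 32 of the 39 genes, and Ugcg was not among them. CAGGTG was found for 7 of the 32 (B4galt5, Cers4, Cers5, Cers6, Gal3st1, Galc and Sgms1), against 15.9% of all 33469 start regions of that length. The longer form CAACAGGTG was found for 0 of the 32, against 0.176% of all. CANNTG was found for 18 of the 32, against 65.5% of all. None of the 7 genes with CAGGTG passed the test of expression described below, which 1.05% of all tested genes passed in either direction. At that share a count from 7 genes cannot show whether these letters go with a change. A match or its absence describes these letters in this window, and binding was not measured.

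The levels of the 39 genes spanned a wide range in these cells. On the TPM scale, which is relative to transcript length, prosaposin (Psap, the precursor of the small proteins that present lipids to lysosomal hydrolases) stood at the top with 278 ± 50.1 in siCtrl and 279 ± 32.4 in siScrt1 (SD of 5 libraries per group). Acid ceramidase Asah1 followed with 120 ± 11.0 and 117 ± 9.47 TPM, and Hexa, a subunit of lysosomal hexosaminidase, with 101 ± 10.8 and 98.5 ± 9.04 TPM. Of the synthesis branch, Ormdl3, an inhibitor of serine palmitoyltransferase, had the highest TPM, with 91.7 ± 10.1 in siCtrl and 88.9 ± 4.61 in siScrt1. Its transcript in the annotation is only 543 bases long. In CPM Ormdl3 had a mean of 34.9 over all libraries, under Cers2 at 98.9. Among the ceramide synthases Cers2, which prefers very long acyl chains, was the most abundant at a mean of 48.7 TPM over all libraries, above Cers5 at 15.9, Cers6 at 13.3 and Cers4 at 4.95 TPM. In siCtrl the sugar transferase Ugt8 stood at 42.2 ± 5.74 TPM and Ugcg at 25.5 ± 1.39 TPM (SD of 5 libraries per group), so the transcript for galactosylation was the more abundant of the pair. Gal3st1, which makes sulfatide from the product of Ugt8, was low at 2.50 ± 0.696 TPM. At the bottom of the tested genes was the neutral ceramidase Asah2 at a mean of 2.13 TPM. In all, 27 of the 36 tested genes lay above the median of 9.86 TPM of all 12941 genes tested.

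**Figure D1:**
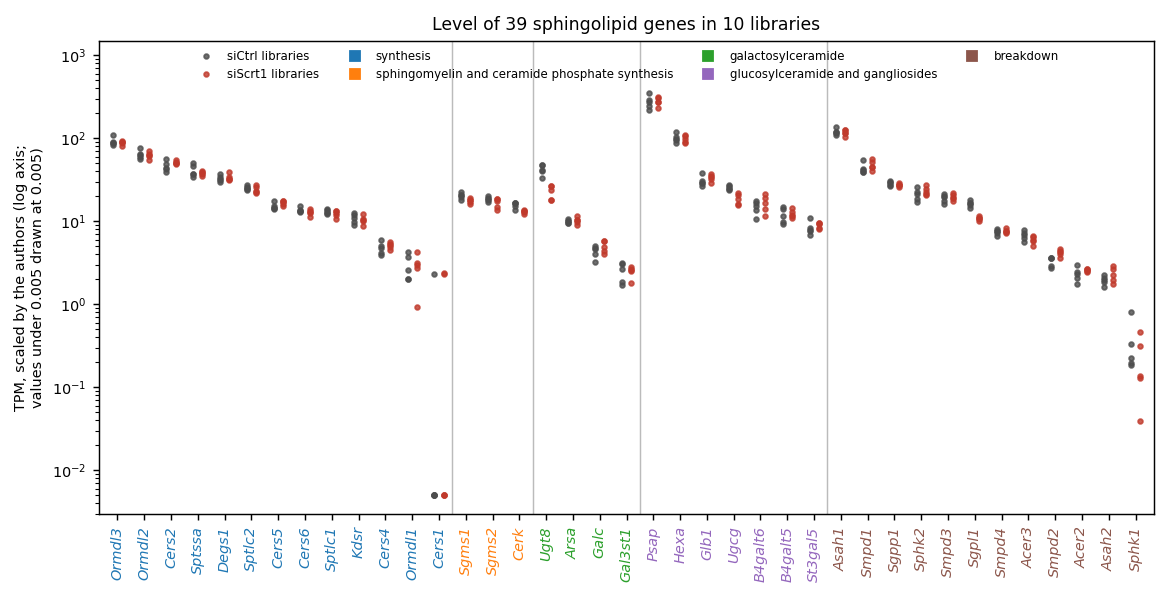
Level of each of the 39 genes in every library, as TPM scaled by the authors on a log axis, with siCtrl libraries in grey and siScrt1 libraries in red, ordered by mean level within each branch (colour of the name). Ugt8, Ugcg and Sgpl1 show separated grey and red points, as does Cerk by a narrow margin. Psap is highest at a mean of 278 TPM, and Cers1 is near 0 in 7 libraries.

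The comparison of siScrt1 with siCtrl asked which of these genes change when Scrt1 is silenced. Both sugar transferases that use ceramide, Ugt8 and Ugcg, and the sphingosine phosphate lyase Sgpl1 were called lowered, and no member was called raised. These 3 of 36 tested genes had a limma adjusted p-value under 0.05. Over all 12941 tested genes 1.05% had such a value in either direction (136 genes) and 0.68% were lowered. Without an adjustment 6 of the 36 had a p-value under 0.05, against 11.1% of all genes, and 5 of them were lower in siScrt1, against 5.75%. Between groups, the CPM values were fully separated for 4 of the 36, which were the 3 genes named and the ceramide kinase Cerk, against 2.96% of all genes (2.02% when lower in siScrt1). The median log2 fold change of the 36 was 0.02, beside 0.0035 for all genes, with 17 negative and 19 positive values. For the 33 genes that did not pass, the log2 fold changes ran from -0.27 to 0.34, and the 95% intervals of all 33 lay between -0.41 and 0.62. When the number that the deposited table gives to the libraries was added as a block, the same 3 genes passed, while 259 of all genes (2.0%) did, with 1.19% lowered. Unadjusted p-values under 0.05 in that fit were found for 8 of the 36, against 16.1% of all genes. Of these 8, Smpd2, Glb1 and B4galt6 were higher in siScrt1 and the others were lower. The 136 genes became fewer by more than 1.5 times on leaving out replicate 4 (82 genes) or 5 (77 genes) of siCtrl, or replicate B (83), C (87), D (62) or E (64) of siScrt1. Both libraries numbered 4 in the table, siCtrl replicate 4 and siScrt1 replicate D, had the highest summed CPM of mesenchymal markers in their groups, at 18.7 and 32.4. Without both, Ugt8 and Sgpl1 passed (limma adjusted p = 0.0208 and 0.0366), and Ugcg did not (limma adjusted p = 0.192).

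**Figure D2:**
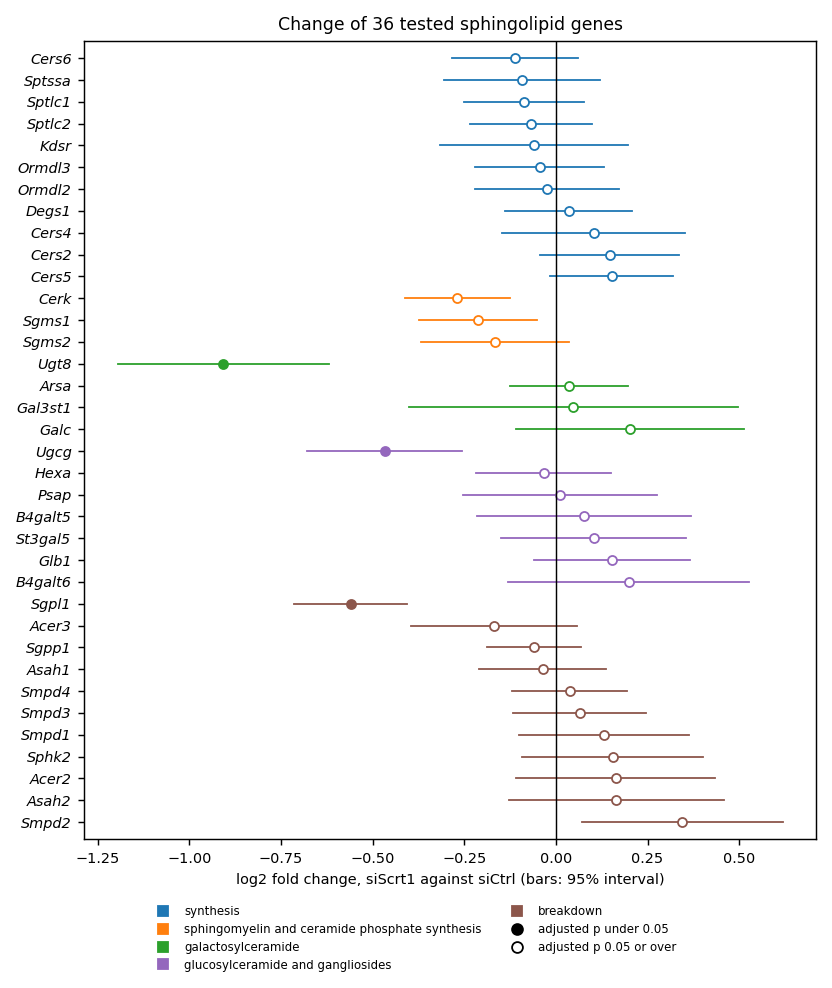
Fitted log2 fold change of siScrt1 against siCtrl for the 36 tested genes, by branch, with bars for the 95% interval and filled points for a limma adjusted p-value under 0.05. The filled points are Ugt8 at -0.91, Sgpl1 at -0.56 and Ugcg at -0.47, and all other intervals lie between -0.41 and 0.62.

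In the galactosylceramide branch 1 of 4 tested genes was lowered and 0 were raised. Ugt8 (ENSRNOG00000009345), the enzyme that makes galactosylceramide, had 149, 193, 172, 133 and 162 CPM in replicates 1 to 5 of siCtrl. The siScrt1 replicates A to E had 97.0, 89.2, 96.4, 71.1 and 68.0 CPM. Every siScrt1 library lay under every siCtrl library, and the lowest values were those of replicates D and E. The fitted change was -0.91 on the log2 scale (95% interval -1.20 to -0.62, limma adjusted p = 0.00568), or -46.7%. Between libraries with the same number in the table, the siScrt1 value was 0.420 to 0.653 of the siCtrl value. The other genes of the branch act on the product. Gal3st1, which adds the sulfate of sulfatide, had 2.69, 3.31, 4.86, 5.27 and 4.66 CPM in siCtrl and 2.86, 4.01, 4.50, 4.68 and 4.63 CPM in siScrt1. Its groups covered the same range, and its interval of -0.40 to 0.50 was wide at this depth (limma adjusted p = 0.956). Arsa, the lysosomal sulfatase that removes this sulfate, was steady, with 37.2, 39.2, 38.7, 38.5 and 39.4 CPM in siCtrl and 36.2, 43.8, 38.2, 41.6 and 34.0 CPM in siScrt1 (log2 fold change 0.04, 95% interval -0.13 to 0.20, limma adjusted p = 0.901). Galc, the lysosomal galactosylceramidase, had 7.84, 13.0, 11.1, 10.5 and 13.1 CPM in siCtrl and 9.83, 14.2, 10.7, 15.4 and 12.1 CPM in siScrt1. Its groups overlapped (log2 fold change 0.20, 95% interval -0.11 to 0.51, limma adjusted p = 0.642).

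Since Ugt8 is best known from myelinating cells, markers of Schwann cells and oligodendrocytes were examined beside it. The 8 genes of this list summed to 63.1 to 71.8 CPM in siCtrl and to 63.2 to 70.6 CPM in siScrt1, and 0 of the 5 that were tested passed. Sox10, which defines these lineages, was at 0 in all 10 libraries. The sum was mostly Cnp and Mbp, with means of 29.7 and 21.7 CPM over all libraries. In bulk RNA, fewer cells of one kind and less RNA per cell cannot be told apart.

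**Figure D3:**
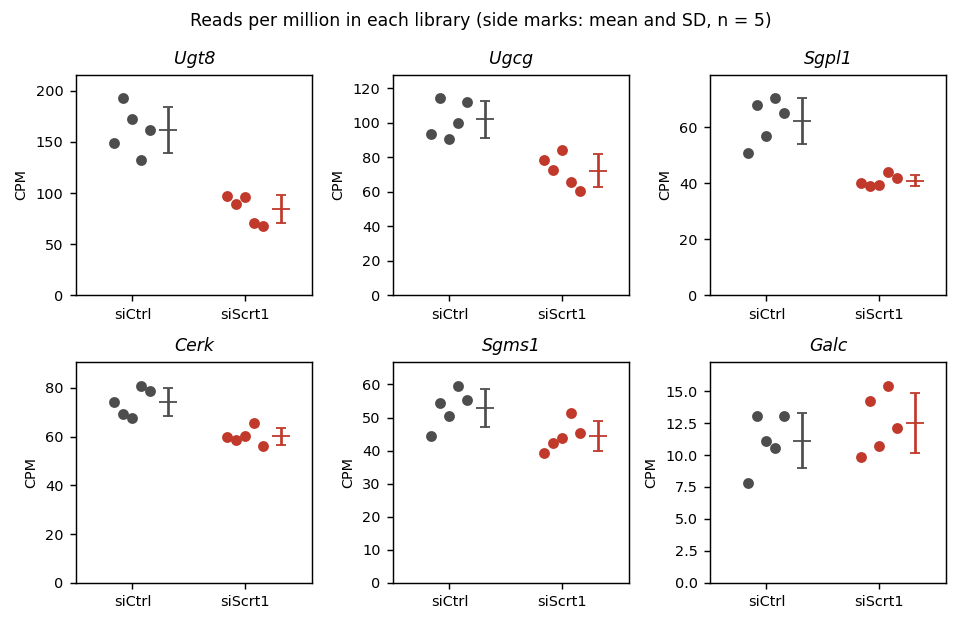
CPM of 6 genes in each library, with siCtrl in grey and siScrt1 in red, and the mean and SD of 5 libraries at the side of each group; each axis starts at 0. For Ugt8, Ugcg, Sgpl1 and Cerk every siScrt1 point lies under every siCtrl point, and for Sgms1 and Galc the groups overlap.

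In the glucosylceramide and ganglioside branch 1 of 7 tested genes was lowered and 0 were raised. Ugcg (ENSRNOG00000015644), the glucosylceramide synthase, had 93.6, 114, 90.5, 99.9 and 112 CPM in replicates 1 to 5 of siCtrl. The siScrt1 replicates A to E had 78.1, 72.4, 84.4, 65.7 and 60.6 CPM. The groups did not overlap, although the gap between siCtrl replicate 3 and siScrt1 replicate C was small. The fitted log2 fold change was -0.47 (95% interval -0.68 to -0.26, limma adjusted p = 0.0415), or -27.7%. This call sat close to the threshold. Leaving out siCtrl replicate 1, 2, 3, 4 or 5 ended it (limma adjusted p = 0.0640, 0.108, 0.0677, 0.0736 and 0.115) as did leaving out siScrt1 replicate B, D or E (limma adjusted p = 0.0893, 0.122 and 0.106). It held without siScrt1 replicate A or C (limma adjusted p = 0.0379 and 0.0230), and the log2 fold change stayed between -0.53 and -0.41 in all 10 of these fits.

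The enzymes that act after Ugcg did not pass. The lactosylceramide synthases B4galt5 and B4galt6 had log2 fold changes of 0.08 (95% interval -0.22 to 0.37) and 0.20 (-0.13 to 0.53), and the GM3 synthase St3gal5 had 0.10 (-0.15 to 0.35). The lysosomal hydrolases Glb1 and Hexa had 0.15 (-0.06 to 0.37) and -0.03 (-0.22 to 0.15). Psap had 572, 711, 899, 765 and 789 CPM in siCtrl and 583, 788, 809, 763 and 717 CPM in siScrt1, with the lowest library of each group carrying the number 1 in the table (log2 fold change 0.01, 95% interval -0.25 to 0.28, limma adjusted p = 0.986).

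The ratio of Ugt8 to Ugcg in TPM was 1.62, 1.78, 2.00, 1.36 and 1.52 in siCtrl replicates 1 to 5 and 1.30, 1.30, 1.20, 1.10 and 1.16 for siScrt1 replicates A to E. The means were 1.66 ± 0.245 and 1.21 ± 0.0859 (SD of 5 libraries per group), and the groups did not overlap. In every library Ugt8 remained the more abundant transcript of the pair. This ratio and the one for Sgpl1 below were chosen after the values had been seen and are given as descriptions, with no test.

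Of the enzymes that put a phosphate or phosphocholine on ceramide, 0 of 3 tested genes passed, and all 3 values were negative. Cerk (ENSRNOG00000017022), the ceramide kinase, had 74.2, 69.1, 67.8, 80.9 and 78.8 CPM in siCtrl and 60.0, 58.5, 60.0, 65.6 and 55.9 CPM in siScrt1. The groups did not overlap, with siScrt1 replicate D nearest to siCtrl. Its log2 fold change of -0.27 (95% interval -0.41 to -0.13) had an unadjusted p-value of 0.00135 and a limma adjusted p of 0.0861. Without siCtrl replicate 2 it passed (log2 fold change -0.32, limma adjusted p = 0.0290). Sgms1, the sphingomyelin synthase of the Golgi, had 44.4, 54.3, 50.3, 59.7 and 55.3 CPM in siCtrl and 39.2, 42.4, 43.8, 51.5 and 45.5 CPM in siScrt1. The groups overlapped, and the log2 fold change was -0.21 (95% interval -0.37 to -0.05, unadjusted p = 0.0131, limma adjusted p = 0.275). Within each pair of same-numbered libraries Sgms1 was lower in siScrt1, at 0.781 to 0.881 of the siCtrl value, and with the number as a block its limma adjusted p was 0.0963. Sgms2, the related synthase that also works at the plasma membrane, had a log2 fold change of -0.17 (95% interval -0.37 to 0.04, limma adjusted p = 0.550).

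In the branch of breakdown and sphingosine phosphate 1 of 11 tested genes was lowered and 0 were raised. Sgpl1 (ENSRNOG00000000565), the lyase that irreversibly splits sphingosine phosphate, had 50.6, 68.0, 57.0, 70.3 and 65.0 CPM in replicates 1 to 5 of siCtrl. The siScrt1 replicates A to E had 40.2, 39.2, 39.4, 43.9 and 42.0 CPM. The siScrt1 libraries lay close together and all under the lowest siCtrl library, replicate 1. The log2 fold change was -0.56 (95% interval -0.71 to -0.41, limma adjusted p = 0.00300), or -32.2%, and the siScrt1 value was 0.576 to 0.793 of that of the same-numbered siCtrl library. Sgpp1, the phosphatase that returns the same substrate to sphingosine, did not pass, with 82.6, 92.9, 84.4, 81.0 and 81.4 CPM in siCtrl and 81.3, 77.5, 74.2, 83.1 and 79.7 CPM in siScrt1 (log2 fold change -0.06, 95% interval -0.19 to 0.07, limma adjusted p = 0.760). The ratio of Sgpl1 to Sgpp1 in TPM was 0.571 ± 0.0744 in siCtrl and 0.398 ± 0.0246 in siScrt1 (SD of 5 libraries per group), without overlap between the groups.

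The other genes of this branch did not pass. The sphingosine kinase Sphk2 had a log2 fold change of 0.15 (95% interval -0.09 to 0.40). The acid sphingomyelinase Smpd1 had 0.13 (-0.10 to 0.36) and the neutral ones Smpd3 and Smpd4 had 0.06 (-0.12 to 0.25) and 0.04 (-0.12 to 0.19). Smpd2, a further neutral sphingomyelinase, had 4.63, 6.47, 5.65, 4.73 and 6.19 CPM in siCtrl and 6.64, 6.59, 5.81, 8.05 and 7.18 CPM in siScrt1. Its groups overlapped, and its log2 fold change of 0.34 (95% interval 0.07 to 0.62) was the largest positive value of the 36 (unadjusted p = 0.0179, limma adjusted p = 0.303). Within each pair of same-numbered libraries Smpd2 was higher in siScrt1, at 1.02 to 1.70 of the siCtrl value. With the number as a block its limma adjusted p was 0.239. Asah1 had 248, 336, 235, 272 and 274 CPM in siCtrl and 243, 254, 221, 296 and 281 CPM in siScrt1 (log2 fold change -0.04, 95% interval -0.21 to 0.14, limma adjusted p = 0.905). The ceramidases Asah2, Acer2 and Acer3 had log2 fold changes of 0.16, 0.16 and -0.17, and each interval included 0.

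Of the enzymes that build ceramide, 0 of 11 tested genes passed, and 0 had an unadjusted p-value under 0.05. Their log2 fold changes lay between -0.11 (Cers6) and 0.15 (Cers5), with a median of -0.04. Sptlc1 and Sptlc2 form the catalytic core of serine palmitoyltransferase. Sptlc1 had 37.4, 47.2, 42.5, 42.6 and 41.2 CPM in siCtrl and 32.6, 41.3, 39.1, 39.7 and 41.3 CPM in siScrt1, with siScrt1 replicate A under all others (log2 fold change -0.09, 95% interval -0.25 to 0.08, limma adjusted p = 0.711). Sptlc2 had 39.2, 44.9, 41.5, 44.8 and 48.0 CPM in siCtrl and 38.1, 37.4, 35.9, 46.7 and 46.1 CPM in siScrt1, and the groups overlapped (log2 fold change -0.07, 95% interval -0.23 to 0.10, limma adjusted p = 0.788). The activating subunit Sptssa had -0.09 (-0.31 to 0.12), and the inhibitors Ormdl2 and Ormdl3 had -0.02 (-0.22 to 0.17) and -0.04 (-0.22 to 0.13). Ormdl3 had 33.9, 36.5, 40.1, 33.3 and 35.4 CPM in siCtrl and 32.7, 35.2, 34.0, 36.8 and 30.9 CPM in siScrt1. The reductase Kdsr had -0.06 (-0.32 to 0.20), and Degs1, which inserts the double bond of ceramide, had 0.03 (-0.14 to 0.21). The ceramide synthases Cers2, Cers4, Cers5 and Cers6 had 0.15, 0.10, 0.15 and -0.11, and each interval included 0. The summed level of the 13 genes of this branch was 362 ± 34.5 TPM in siCtrl and 360 ± 15.7 TPM in siScrt1 (SD of 5 libraries per group).

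The remaining 3 genes did not pass the filter on low values. Ormdl1 had 5 to 11 reads in the siCtrl libraries and 2 to 14 in the siScrt1 libraries. Sphk1, a sphingosine kinase, had 23, 7, 11, 8 and 8 reads in siCtrl and 10, 2, 8, 4 and 4 reads in siScrt1. On the CPM scale this was 0.816 ± 0.507 and 0.412 ± 0.294 (SD of 5 libraries per group), the groups overlapped, and siScrt1 was lower in each of the 5 same-numbered pairs. The difference was not tested. Cers1 was assigned 99.1 reads in siCtrl replicate 3, 109.8 in siScrt1 replicate B and 106.4 in siScrt1 replicate D, and 0.00373 to 0.0264 reads in each of the other 7 libraries. Gdf1, which is known to share a transcript with Cers1, was assigned 6.89, 34.2 and 17.6 reads in those 3 libraries and 61 to 135 in the others. The reads of Cers1 and Gdf1 together came to 61 to 135 in siCtrl and 85 to 144 in siScrt1, or 6.77 ± 1.58 and 7.59 ± 0.605 CPM (SD of 5 libraries per group; two-sided exact permutation p = 0.333). How these reads are divided between Cers1 and Gdf1 was decided by the counting step, so a level for Cers1 alone is uncertain.

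**Figure D4:**
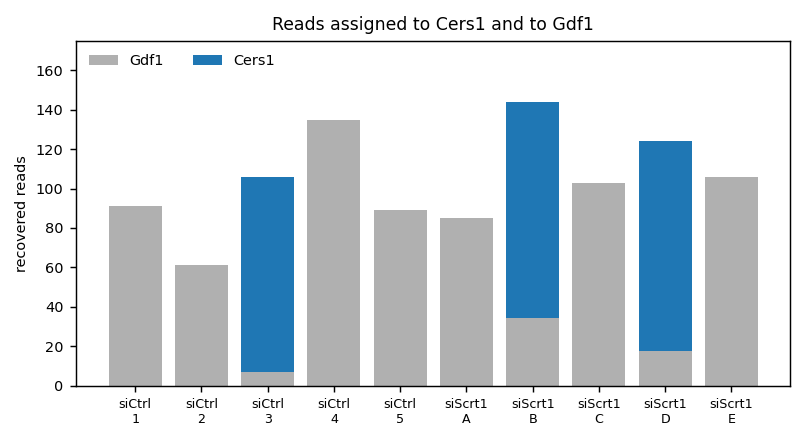
Reads assigned to Gdf1 (grey) and to Cers1 (blue) in each of the 10 libraries, stacked. Cers1 takes 99.1 to 109.8 reads in 3 libraries, in which Gdf1 is low, and almost none in the other 7, while the sum of both stays between 61 and 144.

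The same comparison was made for single transcripts, since 14 of the 39 genes had more than 1 transcript in the table. Of 49 tested transcripts of these genes, 2 had a limma adjusted p-value under 0.05, against 0.415% of all 17576 transcripts tested, and both were lowered, against 0.29%. These were the only transcript of Ugt8 (log2 fold change -0.91, limma adjusted p = 0.0207) and the longer transcript of Sgpl1, ENSRNOT00000084391.1, of 4152 bases (log2 fold change -0.55, limma adjusted p = 0.0205). The latter took 84.4% of the reads of Sgpl1 in siCtrl and 85.0% in siScrt1. The shorter one, of 2038 bases, gave -0.64 on the log2 scale (SE 0.170, limma adjusted p = 0.206). With the table's number as a block the Sgpl1 transcript did not pass (limma adjusted p = 0.0789), and that of Ugt8 did (0.0288). Both transcripts lost their call when siCtrl replicate 2, 3 or 5, or siScrt1 replicate D or E, was left out, with limma adjusted p-values of 0.0523 to 0.0719. That of Sgpl1 also lost it when siCtrl replicate 4 (0.0631), siScrt1 replicate B (0.0510) or siScrt1 replicate C (0.0584) was left out. For Ugcg, the transcript of 3746 bases held 97.6% of the siCtrl reads and 97.5% of the siScrt1 reads, with a log2 fold change of -0.47 and no overlap of the groups (limma adjusted p = 0.177). Of the transcripts of Sgms1, that of 2743 bases had -0.35 (SE 0.102, limma adjusted p = 0.263) and that of 2256 bases -0.09 (SE 0.109, limma adjusted p = 0.831). Whether these transcripts differ in their change was not tested.

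A list of further genes of sphingolipid metabolism, transport and signalling was read from the same fit. Of 65 genes found, 46 were tested, 2 were lowered and 0 were raised, beside 0.68% lowered and 1.05% changed in either direction among all genes. The median log2 fold change was 0.01, beside 0.0035 for all genes. Aldh3a2 (ENSRNOG00000002342) is the fatty aldehyde dehydrogenase that oxidises the aldehyde released by Sgpl1. It had 121, 143, 150, 133 and 130 CPM in replicates 1 to 5 of siCtrl and 100.2, 104, 103, 93.6 and 87.1 CPM in siScrt1 replicates A to E. The groups did not overlap (log2 fold change -0.44, SE 0.0846, limma adjusted p = 0.0269). Rtn4 (ENSRNOG00000004621) encodes the Nogo proteins of the endoplasmic reticulum, of which Nogo-B is known as an inhibitor of serine palmitoyltransferase. It had 137, 185, 146, 163 and 181 CPM in siCtrl and 118, 120.3, 122, 133 and 133 CPM in siScrt1, again without overlap (log2 fold change -0.33, SE 0.0673, limma adjusted p = 0.0362). The call of Aldh3a2 was lost without siCtrl replicate 2, 4 or 5 (limma adjusted p = 0.0609, 0.0526 and 0.0560) or siScrt1 replicate D or E (0.0943 and 0.0833). That of Rtn4 held without siCtrl replicate 1 and was lost without any other library (0.0551 to 0.107).

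The next genes of the list in order of p-value did not pass. Plpp3, a phosphatase of lipid phosphates, gave 0.31 on the log2 scale (SE 0.0925, limma adjusted p = 0.170). With the table's number as a block its limma adjusted p was 0.0280. Gla, the lysosomal α-galactosidase, had -0.25 (SE 0.0789, limma adjusted p = 0.205). St8sia5, a ganglioside sialyltransferase, had 1.02 (SE 0.351, limma adjusted p = 0.269) on 0.304 to 0.848 CPM in siCtrl and 0.672 to 1.32 CPM in siScrt1.

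**Figure D5:**
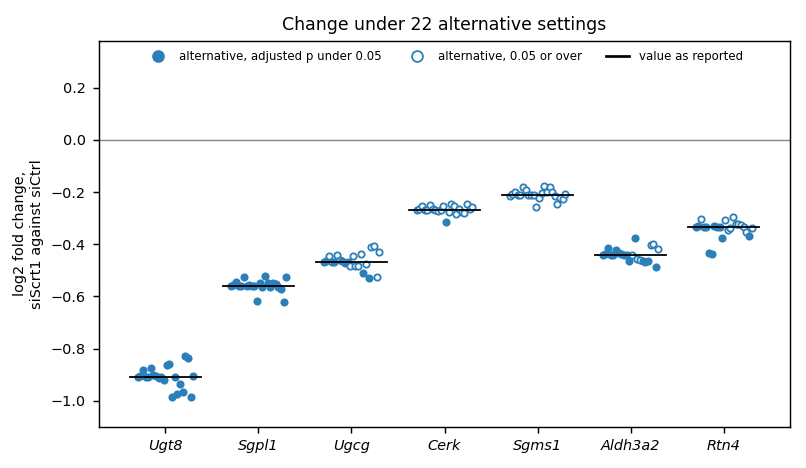
Log2 fold change of 7 genes under each of 22 alternative settings (points), filled where the limma adjusted p-value was under 0.05, with the reported value as a line. Ugt8 and Sgpl1 are filled throughout, Ugcg is filled in 8 of 22, Cerk in 1 of 22 and Sgms1 in 0 of 22.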

How the data were processed

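The authors assigned single-end reads to the Rnor6 transcriptome with kallisto and took them through sleuth. The submitters' processing notes also name FastQC and Trimmomatic, and versions are not given in the sources used here. The deposited table holds 2 kinds of signal for 31715 transcripts in 10 libraries, estimated counts and TPM, both already scaled between libraries by the authors (TPM sums of 821278 to 1153952). A further 9363 rows without values were left out. Low scaled counts were whole multiples of 0.842 to 1.26, the worth of 1 read. Division by this step gave recovered reads, from which CPM was computed, and 50.3% of the values above 0 came out whole within 0.01, so no count model was used.

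For each gene the scaled counts of its transcripts were added, 0.5 was added, and the log2 values were fitted by group alone in limma 3.58.1 (lmFit, eBayes with trend; R 4.3.3). Fold changes on this scale are too small for genes of low count. Genes were kept at 10 reads (at median library size) in at least 5 libraries and 15 reads in total, and transcripts at 5 reads in at least 5 libraries. The Benjamini-Hochberg adjustment ran over all 12941 genes or 17576 transcripts, with a threshold of 0.05. Single values per library were compared by exact two-sided permutation tests (scipy 1.17.1). The members, lists and tests were chosen with earlier results of these data known. Values in every library were to be given for members with an unadjusted or adjusted p-value under 0.05, for the most abundant of each branch, and for the neighbours of Ugt8 and the enzymes that open and close the pathway; those of Sgpp1 were added after its values were seen. Of the further list, genes past the threshold and the 5 with the smallest unadjusted p-values were named.

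The table numbers the libraries 1 to 5 in each group. Deviations from the group means correlated at 0.131 to 0.351 within the 5 same-numbered pairs and at -0.179 to 0.167 between other libraries of the 2 groups. These ranges overlap, so the numbers may pair the libraries but do not settle it. The main fit was by group alone, and the number was used as a block in an alternative fit. What the numbers stand for is not given in the sources used here. RefSeq start regions are those of build GRCr8, and coordinates of Rnor6 were not used here.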

Additional observations from a re-analysis of the deposited data

Results flagged for a closer look

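Among 84 groups of 5 libraries, one for each gene and group examined, 2 held a library far from the other 4 by Dixon's ratio, where about 4 would be marked by chance. Sptlc1 stood at 32.6 CPM in siScrt1 replicate A, under the 39.1 to 41.3 CPM of the other siScrt1 libraries. Sgpp1 stood at 92.95 CPM in siCtrl replicate 2, while the other siCtrl libraries had 81.0 to 84.4 CPM. Without these libraries Sptlc1 had a log2 fold change of -0.04 (adjusted p = 0.888) and Sgpp1 of -0.05 (adjusted p = 0.901), and neither passed.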

How the results depend on the processing

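Ugt8 and Sgpl1 passed (limma, threshold 0.05) under each of 22 alternatives, at log2 fold changes of -0.99 to -0.83 and -0.62 to -0.52. Ugcg lost its call in 14 of 22, and its log2 fold change lay between -0.53 and -0.41 over all 22. The losses were in 8 of the fits without one library, without both libraries numbered 1 (limma adjusted p = 0.0612) and without both numbered 4 (0.192). With all libraries Ugcg lost its call with cyclic loess, without a filter, and with log2(TPM + 0.1), at limma adjusted p-values of 0.0526, 0.0514 and 0.0507, and with log2(TPM + 1), at a value just over the threshold. The number of members changed was 2 or 3 throughout. Of the 33 members without a call, 1 (Cerk) gained one, in 1 alternative. No scaling moved the median of all genes by 0.1.

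In the fits that left out one replicate, all genes changed ranged from 62 to 133, further pathway genes from 0 to 2, transcripts of the members from 0 to 2, and Scrt1 from -2.26 to -1.80. Signs changed in these fits for 11 members near 0, whose log2 fold changes ranged from -0.071 to 0.043 (Ormdl2), -0.080 to 0.021 (Ormdl3), -0.12 to 7.4e-05 (Kdsr), -0.022 to 0.078 (Degs1), -0.082 to 0.16 (Gal3st1), -0.015 to 0.080 (Arsa), -0.0057 to 0.16 (B4galt5), -0.078 to 0.026 (Hexa), -0.067 to 0.11 (Psap), -0.0017 to 0.071 (Smpd4) and -0.068 to 0.019 (Asah1). Each such fit has 1 library fewer.

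The replicate block gave 259 genes and 1 member transcript, that of Ugt8, and added Plpp3 to the further genes; it changed no other call among the genes named. Cyclic loess left 1 further pathway gene, and the cause was not tested. After the data were seen, both libraries numbered 4 were left out, since they are highest in summed mesenchymal markers (18.7 and 32.4 CPM). This gave 25 genes, 0 further pathway genes and a Scrt1 value of -1.82 (adjusted p = 0.0621), while Ugt8 and Sgpl1 passed (adjusted p = 0.0208 and 0.0366). Depth limits Ormdl1, Sphk1 and Gal3st1 most. The planned transcript and gene alternatives were all run.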
